A study of Mus musculus with 3 samples.

Results

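The C/EBP transcription factors are the 6 mouse genes Cebpa, Cebpb, Cebpd, Cebpe, Cebpg and Cebpz. They were chosen by name, and every non-control probe whose accession is a transcript of one of them was taken, which gave 6 probes of 39429, 1 probe and 1 spot for each gene, among 20659 named genes. The probes were A_52_P168567 for Cebpa (NM_007678), A_55_P2165869 for Cebpb (NM_009883), A_51_P444447 for Cebpd (NM_007679), A_55_P2165839 for Cebpe (NM_207131), A_52_P438082 for Cebpg (NM_009884) and A_52_P109403 for Cebpz (NM_001024806). The family was picked with its signals on these arrays known, so the levels and ratios below are a description with no test.

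The arrays compared LIFR KO, gp130 KO and wildtype mouse cells, which the labels call mESCs (mouse embryonic stem cells), with 1 single-colour Agilent array for each genotype. LIFR binds the cytokine LIF, and gp130, the product of Il6st, is the chain through which LIFR and the receptors of IL-6 and related cytokines signal. The labels name no treatment, time, strain or clone and say only that culture conditions were standard, so whether LIF was in the medium is not given in the sources used here. Without replicate arrays there is no spread between cultures, and every difference below is one between single arrays.

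C/EBP proteins bind DNA as dimers through a basic region and a leucine zipper. C/EBPα and C/EBPε act mainly in differentiation, C/EBPα in liver, fat and myeloid cells and C/EBPε in granulocytes. C/EBPβ and C/EBPδ are induced by cytokines and take part in the acute-phase and inflammatory response, and in several cell types the Cebpd gene is induced by STAT3, which LIFR and gp130 activate. C/EBPγ has no activation domain of its own and pairs with other members and with ATF4. Cebpz is called a C/EBP gene by its name but lacks the leucine zipper structure, and its product is a nucleolar protein related to ribosome assembly factors.

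Promoter sequences are shown first, because C/EBP genes and their targets are known for control through short DNA motifs near the start. They were read from the RefSeq promoter table of build GRCm38.p6, which runs from 250 bases before to 50 bases after each start. Of the 6 genes 3 matched the table, Cebpb at chr2:167688665-167688964 on the plus strand, Cebpg at chr7:35056517-35056816 on the minus strand and Cebpa at chr7:35119043-35119342 on the plus strand. Capitals mark the CRE half-site TGACG, or CGTCA on the other strand, and the CCAAT box, or ATTGG on the other strand. The C/EBP motif TTGCNNAA (other strand TTNNGCAA) and the STAT motif TTCNNNGAA, which reads alike on both strands, were searched too and were not found in these windows. Cebpd, Cebpe and Cebpz had no matched window there, so no motif was searched in them.
Cebpb: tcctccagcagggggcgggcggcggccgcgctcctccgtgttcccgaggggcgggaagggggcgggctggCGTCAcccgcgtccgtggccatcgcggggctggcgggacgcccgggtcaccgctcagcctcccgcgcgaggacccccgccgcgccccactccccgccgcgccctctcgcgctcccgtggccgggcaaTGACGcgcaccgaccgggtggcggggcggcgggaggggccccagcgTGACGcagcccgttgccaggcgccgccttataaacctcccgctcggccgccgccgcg
Cebpg: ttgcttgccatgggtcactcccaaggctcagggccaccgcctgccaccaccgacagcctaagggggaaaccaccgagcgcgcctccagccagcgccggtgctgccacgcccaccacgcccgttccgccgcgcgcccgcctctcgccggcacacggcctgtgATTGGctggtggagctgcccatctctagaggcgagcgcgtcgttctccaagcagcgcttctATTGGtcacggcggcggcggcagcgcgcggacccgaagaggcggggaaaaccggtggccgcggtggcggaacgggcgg
Cebpa: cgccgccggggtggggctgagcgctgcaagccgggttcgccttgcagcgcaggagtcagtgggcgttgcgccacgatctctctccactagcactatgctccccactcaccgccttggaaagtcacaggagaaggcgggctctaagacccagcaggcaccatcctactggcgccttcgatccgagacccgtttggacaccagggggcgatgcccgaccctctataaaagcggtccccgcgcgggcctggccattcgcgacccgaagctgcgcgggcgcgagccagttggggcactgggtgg

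The Cebpb window held the CRE half-site 3 times, with its leftmost base at -180, -53 and -7 from the start. The Cebpg window held ATTGG at -89 and -28. The Cebpa window held none of these letters. Over all 32851 promoters of the table, the CRE half-site was present in 20.8% and the CCAAT box in 37.4%, so neither is rare.

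Promoters of 4 known targets of C/EBPβ and C/EBPδ are shown next, 3 that hold the C/EBP motif and 1 that does not, picked after their values were seen. Ptgs2 encodes the inducible cyclooxygenase, Il6 the cytokine IL-6, Lcn2 the iron-withholding protein lipocalin and Cxcl1 a neutrophil chemokine. They lie at chr1:150099781-150100080 on the plus strand, chr5:30012864-30013163 on the plus strand, chr2:32387690-32387989 on the minus strand and chr5:90890995-90891294 on the plus strand, in that order. Here the capitals mark the C/EBP motif alone, so Cxcl1 has none.
Ptgs2: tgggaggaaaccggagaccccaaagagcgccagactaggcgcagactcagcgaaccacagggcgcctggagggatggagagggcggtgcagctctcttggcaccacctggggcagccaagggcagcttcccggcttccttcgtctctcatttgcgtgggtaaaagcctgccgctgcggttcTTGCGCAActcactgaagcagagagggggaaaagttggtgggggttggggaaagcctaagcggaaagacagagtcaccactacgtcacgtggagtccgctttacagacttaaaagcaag
Il6: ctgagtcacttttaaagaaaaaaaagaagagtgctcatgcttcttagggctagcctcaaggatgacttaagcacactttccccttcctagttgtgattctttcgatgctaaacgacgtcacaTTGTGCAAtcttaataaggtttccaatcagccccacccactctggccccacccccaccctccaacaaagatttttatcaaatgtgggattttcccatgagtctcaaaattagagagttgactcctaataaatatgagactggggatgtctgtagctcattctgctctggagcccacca
Lcn2: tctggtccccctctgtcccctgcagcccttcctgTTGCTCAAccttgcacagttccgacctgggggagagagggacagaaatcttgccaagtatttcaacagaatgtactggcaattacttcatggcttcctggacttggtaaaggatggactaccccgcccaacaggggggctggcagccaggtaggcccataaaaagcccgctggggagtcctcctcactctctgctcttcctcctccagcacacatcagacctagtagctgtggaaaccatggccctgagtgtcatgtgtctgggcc
Cxcl1: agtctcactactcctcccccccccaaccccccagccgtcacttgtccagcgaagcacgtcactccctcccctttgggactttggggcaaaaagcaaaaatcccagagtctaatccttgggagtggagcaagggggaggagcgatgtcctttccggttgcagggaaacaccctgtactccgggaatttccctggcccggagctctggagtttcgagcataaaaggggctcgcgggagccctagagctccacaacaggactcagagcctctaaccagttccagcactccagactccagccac

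The motif read TTGCGCAA at -69 in Ptgs2, TTGTGCAA at -128 in Il6 and TTGCTCAA at -216 in Lcn2. It was present in 10 of the 15 inflammatory and acute-phase target promoters that were matched, against 10.8% of all promoters. Listed genes were matched with the windows of a single chromosome left out, and the share over all promoters included them. The 5 promoters without the motif were those of Cxcl1, Cxcl2, Il1b, Crp and Itih4. Cxcl1 was at least 2-fold lower in both knockouts below, and Cxcl2 in gp130 KO cells alone, as a bound. The listed targets were chosen for being known C/EBP targets, so the count of 10 of 15 is a description of the list. A match is a run of letters and was not tested for binding.

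Levels are given as background-subtracted signals, with the array's 75th percentile as the yardstick between arrays. That percentile was 750 on the LIFR KO, 652 on the gp130 KO and 664 on the wildtype array. Signals of different probes are not set against each other, since probes differ in how brightly they hybridise. Cebpb, Cebpd, Cebpg and Cebpz were well above background on all 3 arrays, Cebpa on the gp130 KO and wildtype arrays, and Cebpe on none. Of all 20637 genes, 63.6% were well above background on all 3.

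Cebpd was the member whose level differed most between the arrays. Its signal was 671 on the LIFR KO array, 1128 on the gp130 KO array and 2391 on the wildtype array. Relative to the 75th percentile this is 0.894, 1.73 and 3.60 in the same order, so the LIFR KO array was lowest, the gp130 KO array intermediate and the wildtype array highest. Cebpd was 4.03-fold lower in LIFR KO cells than in wildtype cells, a log2 ratio of -2.01. The scanner's own error model gives this ratio an interval of -2.41 to -1.61 at 95%, which covers the reading of the spot and not the culture. In gp130 KO cells it was 2.08-fold lower than in wildtype cells, a log2 ratio of -1.06 with a scanner interval of -1.46 to -0.66, which holds the 2-fold mark.

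Between the knockouts, Cebpd was 1.94-fold higher in gp130 KO than in LIFR KO cells, a log2 ratio of 0.95 with a scanner interval of 0.55 to 1.35. This falls just short of the 2-fold mark, and no alternative processing took it past. Neighbouring levels in the order thus lay further apart than the scanner interval. Repeated spots of 1 probe scattered by less, and their median SD puts the 95% half-width of a log2 ratio at 0.14 for LIFR KO over wildtype and 0.15 for gp130 KO over wildtype. At the 90th percentile of that scatter the half-widths were 0.45 and 0.54, which still leaves Cebpd outside.

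**Figure D1:**
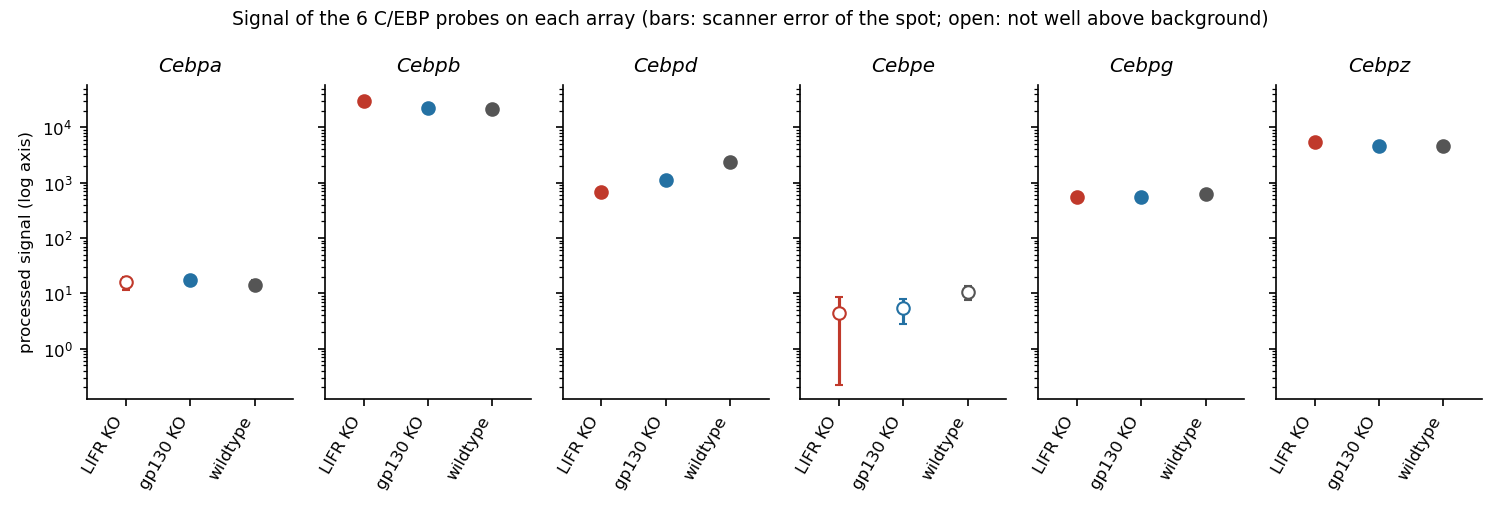
Processed signal (log axis) of the 6 C/EBP probes on the LIFR KO, gp130 KO and wildtype arrays, 1 array each, with bars for the scanner error of the spot. Filled points are well above background and open points are not, and the lower bar of Cebpe on the LIFR KO array is cut short because it nearly reaches 0. Cebpd is at 671 on the LIFR KO, 1128 on the gp130 KO and 2391 on the wildtype array. Cebpg lies between 544 and 623 and Cebpz between 4588 and 5489.

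Of the 5 C/EBP genes compared between LIFR KO and wildtype cells, 4 were measured on both arrays. Cebpa entered as a bound set to 0, so it could not count as apart. Cebpd alone was at least 2-fold apart. The background for that count is 617 of 14551 genes either way, or 4.24%, with 2.62% at least 2-fold higher and 1.62% lower. Among the 13139 genes measured on both arrays, the Cebpd ratio ranked 12th from the lowest. Between gp130 KO and wildtype cells Cebpd again was the only one of 5 compared, against 263 of 14903 genes or 1.76% either way, 0.98% higher and 0.785% lower. It ranked 60th from the lowest of 14082 measured on both. Both comparisons use the same wildtype array. Between gp130 KO and LIFR KO cells 0 of 5 members were at least 2-fold apart, against 494 of 14765 genes or 3.35% either way, 1.29% higher and 2.05% lower, and Cebpd ranked 138th from the highest of 13168 measured on both. Since the family was chosen on these arrays, nothing is read from these counts.

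**Figure D2:**
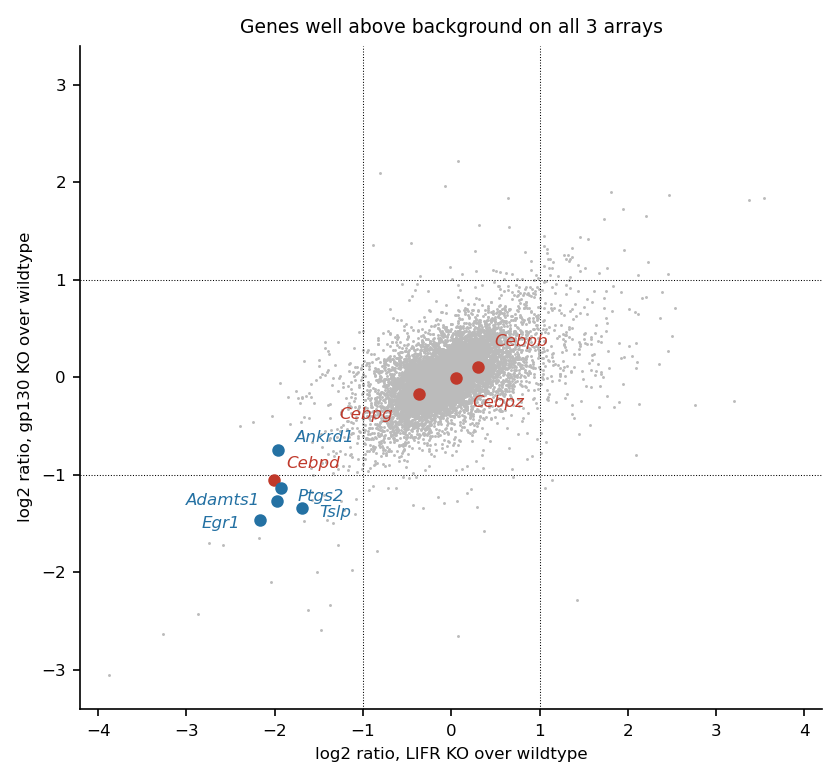
Log2 ratio of LIFR KO over wildtype (horizontal) against gp130 KO over wildtype (vertical) for the 13121 genes well above background on all 3 arrays, with the 4 C/EBP genes among them in red, the 5 genes nearest to Cebpd in blue and dotted lines at 2-fold. Both axes share the wildtype array, and 6 genes lie outside the axes. Cebpd sits at -2.01 and -1.06, apart from Cebpb, Cebpg and Cebpz near the centre.

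Cebpb, the other cytokine-induced member, did not follow Cebpd. Its signal was 29818 on the LIFR KO, 22623 on the gp130 KO and 21391 on the wildtype array, so the LIFR KO array was highest. The log2 ratios were 0.30 for LIFR KO over wildtype, 0.11 for gp130 KO over wildtype and -0.20 for gp130 KO over LIFR KO. The scanner interval of each reached across 0, and that of LIFR KO over wildtype ran from -0.10 to 0.70. With normexp background correction at an offset of 50, 1 of the 11 alternatives, the LIFR KO ratio turned to -0.21 and that of gp130 KO over LIFR KO to 0.28.

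Cebpg and Cebpz stayed within 2-fold in every comparison. In LIFR KO over wildtype the Cebpg ratio was 2.55 times the half-width from the median scatter of repeated spots, and the Cebpz ratio 0.36 times. That of Cebpb was 2.12 times. Cebpg, which encodes the dimer partner without an activation domain, had signals of 546 on the LIFR KO, 544 on the gp130 KO and 623 on the wildtype array. Its log2 ratios were -0.37 for LIFR KO over wildtype, -0.17 for gp130 KO over wildtype and 0.20 for gp130 KO over LIFR KO, and each scanner interval reached across 0, with the last at -0.06 under the same normexp setting. Cebpz had signals of 5489, 4588 and 4691 on the LIFR KO, gp130 KO and wildtype arrays. Its log2 ratios over wildtype were 0.05 for LIFR KO and -0.0045 for gp130 KO, the smallest of the measured members in both, with -0.35 for LIFR KO under that normexp setting and 0.01 for gp130 KO with the array median as the yardstick. For gp130 KO over LIFR KO the Cebpz log2 ratio was -0.06, and 0.33 under that normexp setting.

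The differentiation members were near or below the limit of detection. Cebpa gave 15.7 on the LIFR KO array, where it was not well above background, 17.6 on the gp130 KO array and 14.3 on the wildtype array. The lowest signal well above background was 16.7, 9.66 and 10.5 on these arrays, so no fold could be given for LIFR KO over wildtype. For gp130 KO over wildtype the Cebpa log2 ratio was 0.33 with a scanner error of 0.37. Cebpe gave 4.38, 5.34 and 10.5 on the LIFR KO, gp130 KO and wildtype arrays and was well above background on none, so it has no ratio.

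**Figure D3:**
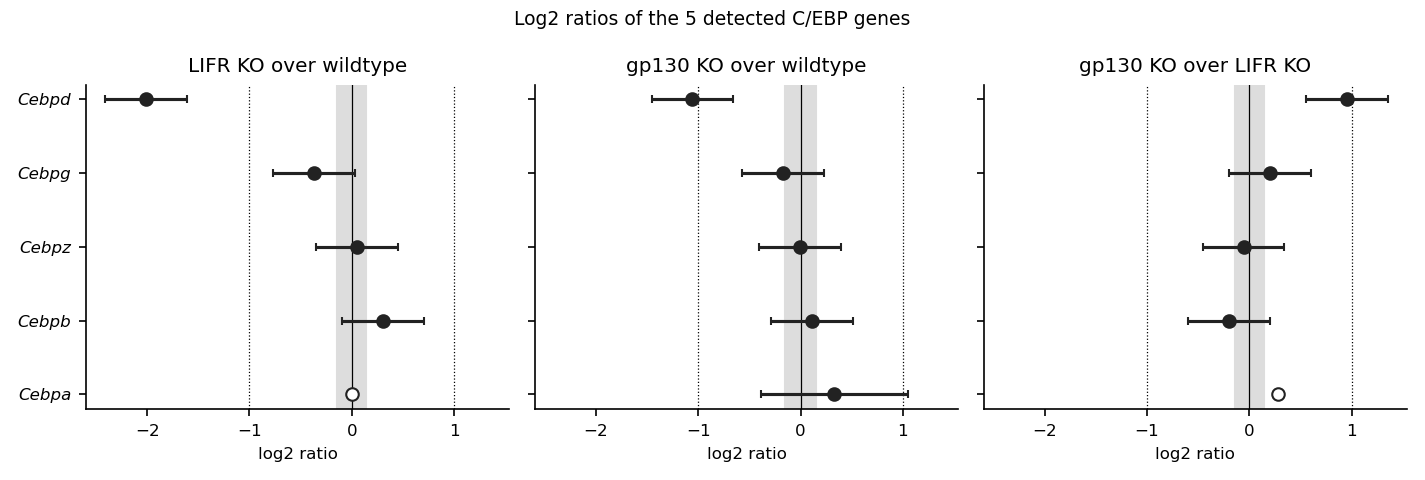
Log2 ratio of each C/EBP gene in the 3 comparisons, with the 95% scanner interval of measured ratios, dotted lines at 2-fold and a grey band for the 95% half-width of repeated spots. Open points are bounds, drawn with no error, and Cebpe has no ratio. Cebpd lies past the 2-fold line at -2.01 for LIFR KO and -1.06 for gp130 KO over wildtype, and at 0.95 for gp130 KO over LIFR KO.

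The genes with the ratio pattern most like that of Cebpd were found by the Euclidean distance over its log2 ratios of LIFR KO and of gp130 KO over wildtype, among 13121 genes well above background on all 3 arrays. The likeness rests on 3 arrays and on a shared wildtype array. The closest was Ptgs2 at a distance of 0.116, followed by Adamts1, a secreted metalloprotease gene, at 0.215. Ankrd1, which encodes a nuclear ankyrin-repeat protein, lay at 0.314, the epithelial cytokine gene Tslp at 0.432 and the immediate-early transcription factor gene Egr1 at 0.434. Ptgs2 had signals of 3187 on the LIFR KO, 4786 on the gp130 KO and 10744 on the wildtype array. As with Cebpd, its LIFR KO array was lowest and its wildtype array highest, at log2 ratios over wildtype of -1.93 for LIFR KO and -1.14 for gp130 KO. Egr1 had 109, 156 and 436 on the LIFR KO, gp130 KO and wildtype arrays, with log2 ratios over wildtype of -2.17 and -1.46 for LIFR KO and gp130 KO, and -0.63 for LIFR KO with normexp at an offset of 50.

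Upstream of Cebpb and Cebpd, 15 of 16 listed genes could be compared. In LIFR KO over wildtype 1 was at least 2-fold higher and 0 lower, with a median log2 ratio of 0.0038 against -0.03 over all genes. In gp130 KO over wildtype 0 were higher and 1 lower, with a median of 0.02 against 0.03. Over all genes 2.62% were higher and 1.62% lower in LIFR KO, and 0.98% and 0.785% in gp130 KO, so nothing is read from these counts. The higher gene was Socs3, the feedback inhibitor that STAT3 induces, with signals of 6573 on the LIFR KO, 1820 on the gp130 KO and 2256 on the wildtype array. It stood high on the LIFR KO array, where Cebpd stood lowest, at a log2 ratio of 1.37 over wildtype, or 0.88 with normexp at an offset of 50. The lower gene was Egr2, a zinc-finger factor that acts before Cebpb in fat cell formation, at 20.3 on the LIFR KO, 6.96 on the gp130 KO and 26.0 on the wildtype array. It was not well above background on the gp130 KO array, at least 2.64-fold lower there than in wildtype cells. That call was lost under both normexp fits, at a log2 ratio of -0.41 in each, and Egr2 was not compared when both arrays had to be well above background. Rela, an NF-κB subunit, and Smad3, a TGF-β signal transducer, had log2 ratios over wildtype of -0.07 and 0.29 for LIFR KO and 0.14 and 0.23 for gp130 KO. Stat3, picked after its values were seen, gave 2385 on the LIFR KO, 1471 on the gp130 KO and 1618 on the wildtype array, log2 ratios over wildtype of 0.39 for LIFR KO and -0.11 for gp130 KO.

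Among 21 dimer partners and regulators of C/EBP proteins, 1 was at least 2-fold higher in LIFR KO than in wildtype cells and 0 lower, and in gp130 KO over wildtype the counts were 0 and 0. The shares over all genes were 2.62% higher and 1.62% lower in LIFR KO, and 0.98% and 0.785% in gp130 KO. The list medians were 0.0069 and 0.04 against -0.03 and 0.03 over all genes. With normexp at an offset of 50 the LIFR KO counts were 4 higher and 2 lower. The higher gene was Fos, an AP-1 subunit, with signals of 213 on the LIFR KO, 24.9 on the gp130 KO and 44.2 on the wildtype array, a log2 ratio of 2.10 for LIFR KO over wildtype and -0.80 for gp130 KO over wildtype. Dbp, a gene of a clock-controlled bZIP factor, was read at log2 ratios of 0.55 and 0.34 for LIFR KO and gp130 KO over wildtype, but its other probe, also well above background on all arrays, gave 2.08 and 1.07. The probes of Dbp thus disagree on whether it is past 2-fold. Jun, the AP-1 partner of Fos, gave 1317, 1550 and 2303 on the LIFR KO, gp130 KO and wildtype arrays, a log2 ratio of -0.98 for LIFR KO over wildtype, close to 2-fold. Atf4, the stress factor that pairs with C/EBPγ, gave log2 ratios over wildtype of -0.72 for LIFR KO and -0.49 for gp130 KO. Calr, whose product acts on Cebp mRNA translation, had 0.02 and 0.08. Atf3, another stress-induced factor, was 2.21-fold lower in gp130 KO than in LIFR KO cells, at signals of 215 and 545, where the local background of its LIFR KO spot was 44 against an array median of 23.5. With normexp fitted without the stray signal the Atf3 log2 ratio was -0.90, within 2-fold. Jun, Dbp and Atf3 were picked after their values were seen.

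The list of inflammatory and acute-phase targets held the most genes that were lower. Of 22 listed genes 16 could be compared with wildtype, and 6 were at least 2-fold lower in LIFR KO cells and 7 in gp130 KO cells, with 0 higher in either. Over all genes 1.62% were lower in LIFR KO and 0.785% in gp130 KO. Il6 and Cxcl2 entered through the wildtype array alone, so they could only count as lower. The list was chosen with earlier results of these data known, so nothing is read from its counts. The median log2 ratio was -0.63 for LIFR KO and -0.41 for gp130 KO, against -0.03 and 0.03 over all genes. With both arrays required to be well above background, which leaves out Il6 and Cxcl2, the LIFR KO median was -0.45. Under the alternatives the lower count ran from 5 to 7 in both knockouts. The LIFR KO median is the lowest of its range, -0.63 to 0, and moved by more than the scatter of repeated spots in 7 of 11 alternatives, to -0.24 with normexp fitted without the stray signal and to 0 with normexp at an offset of 50. Under that last setting 5 members were at least 2-fold higher in LIFR KO cells. The lower genes of both knockouts were Ptgs2, described above, and genes of secreted signals. Cxcl1 and Cxcl5, neutrophil chemokine genes, had log2 ratios over wildtype of -3.87 and -2.87 for LIFR KO and -3.05 and -2.42 for gp130 KO. Csf3, which encodes a growth factor of granulocytes, and Ccl2, a monocyte chemokine gene, had -3.27 and -2.58 for LIFR KO and -2.63 and -1.72 for gp130 KO. Il6 gave 3.64 on the LIFR KO and 5.24 on the gp130 KO array, not well above background on either, and 36.4 on the wildtype array. It was at least 2.46-fold lower in LIFR KO and at least 3.70-fold lower in gp130 KO cells, calls that both normexp fits lost, with log2 values of 0 and -0.71 for LIFR KO and -0.53 in each for gp130 KO. Cxcl2 made up the 7 in gp130 KO cells, at least 2.78-fold lower, and was at -0.28 there under both normexp fits. For LIFR KO its bound was a log2 ratio of -0.89, short of 2-fold, and its ratio was -2.03 with no filter on dim probes. Il1b and Nos2, picked after their values were seen, were within 2-fold under the main processing. Il1b, a secreted cytokine gene, had log2 ratios over wildtype of -0.59 for LIFR KO and -0.45 for gp130 KO, and Nos2 had -0.12 and -0.37.

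The acute-phase members of the same list that could be compared lay within 2-fold of wildtype in both knockouts, and they are named here after their values were seen. Itih4, the gene of a plasma protease inhibitor family, was the lowest of them at a log2 ratio of -0.66 for LIFR KO over wildtype. With normexp at an offset of 50, Itih4 and Saa3 were past 2-fold higher in LIFR KO cells, at 1.61 and 1.71. Lcn2 gave 2493 on the LIFR KO, 2255 on the gp130 KO and 2749 on the wildtype array, log2 ratios over wildtype of -0.32 for LIFR KO and -0.26 for gp130 KO. C3, the central complement gene, had log2 ratios of 0.07 for LIFR KO and -0.05 for gp130 KO over wildtype. Saa3 and Saa1, serum amyloid genes, had 0.16 and -0.13 for LIFR KO and 0.05 and 0.0018 for gp130 KO over wildtype. Of the genes with promoters printed above, Ptgs2, Il6 and Cxcl1 were at least 2-fold lower in both knockouts and Lcn2 was not, with Il6 as a bound. Csf3, Cxcl5 and Ccl2 had no matched promoter window. The printed promoters were picked after their values were seen, so no link of motif to ratio is read from them. Saa2, Orm1, Orm2, Crp, A2m and Ptx3 were well above background on no array. Between the knockouts, 14 members of the list could be compared and 0 were 2-fold apart, against 3.35% of all genes. The list median of gp130 KO over LIFR KO was 0.14 against 0.05 over all genes. It was -0.18 with normexp at an offset of 50 and -0.01 with the array median as the yardstick.

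**Figure D4:**
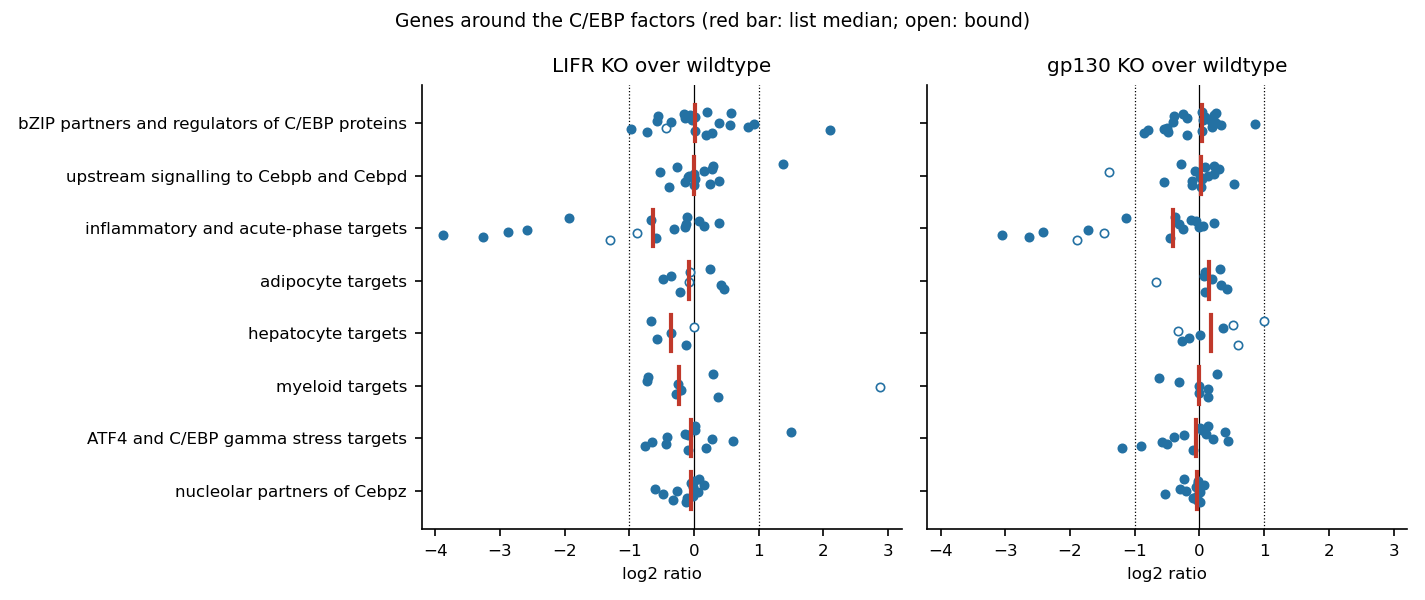
Log2 ratios over wildtype of the compared genes in each of the 8 gene lists, LIFR KO and gp130 KO, with a red bar at each list's median, open points for bounds and dotted lines at 2-fold. The inflammatory and acute-phase list has 6 genes below the lower line in LIFR KO and 7 in gp130 KO, and each other list has at most 1 gene past either line.

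Of 12 adipocyte targets 8 could be compared and 0 were 2-fold apart in either knockout, with medians of -0.08 for LIFR KO and 0.15 for gp130 KO over wildtype. With normexp at an offset of 50 the LIFR KO median was 1.46, with 5 genes at least 2-fold higher. Under the main processing 4.24% of all genes were at least 2-fold apart from wildtype in LIFR KO and 1.76% in gp130 KO. Scd1, a fatty acid desaturase gene, gave 1567, 1433 and 1166 on the LIFR KO, gp130 KO and wildtype arrays, and Fabp4, a fatty acid carrier gene, 89.8, 76.0 and 57.8. Of 11 hepatocyte targets 5 and 8 could be compared in LIFR KO and gp130 KO, again with 0 counted past 2-fold over wildtype and medians of -0.35 and 0.18. With normexp at an offset of 50 the LIFR KO median was 1.30, with 3 genes at least 2-fold higher. Hnf4a, a liver transcription factor gene picked after its value was seen, was detected on the gp130 KO array alone, at a log2 bound of 0.996 over wildtype, just under 2-fold, and was past it in 4 of the 10 alternatives that compared it. Tat, a tyrosine-degrading enzyme gene, and Serpina1a, a gene of the protease inhibitor antitrypsin, had log2 ratios over wildtype of -0.35 and -0.67 for LIFR KO and 0.0074 and 0.36 for gp130 KO. Alb, Ttr and Arg1, genes of albumin, transthyretin and arginase, were well above background on no array.

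Of 15 myeloid targets 8 could be compared in LIFR KO and 7 in gp130 KO, with medians of -0.23 and 0.00045 over wildtype. Past 2-fold either way over wildtype were 4.24% of all genes in LIFR KO and 1.76% in gp130 KO. Csf3r, the receptor of the granulocyte growth factor and a C/EBPα target, gave 32006, 23553 and 21951 on the LIFR KO, gp130 KO and wildtype arrays. Elane, the neutrophil elastase gene, gave 1407, 1545 and 1431. Camp, an antimicrobial peptide gene, was the 1 member past 2-fold, at a log2 bound of 2.87 for LIFR KO over wildtype. Its LIFR KO spot had a local background of 83.5, and with spots above 40 left out Camp was read from its other probe at a bound of -0.32 and no myeloid target was past 2-fold. The call was also lost under both normexp fits, at 0 and 0.50.

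Of the 14 stress targets of ATF4 and C/EBPγ, 1 was at least 2-fold higher and 0 lower in LIFR KO than in wildtype cells. In gp130 KO cells 0 were higher and 1 lower than in wildtype cells, and the medians were -0.05 in both. The shares over all genes were 2.62% higher and 1.62% lower in LIFR KO, and 0.98% and 0.785% in gp130 KO. The higher gene was Ddit4, an inhibitor of mTOR signalling, at 12262 on the LIFR KO, 4943 on the gp130 KO and 3838 on the wildtype array. The lower gene was Chac1, a glutathione-degrading enzyme gene, at 5312, 1783 and 4146 on the LIFR KO, gp130 KO and wildtype arrays. Psat1 and Phgdh, genes of serine synthesis, were nearly level, with log2 ratios over wildtype between 0.00035 and 0.14. Of the 13 nucleolar partners of Cebpz, 0 were 2-fold apart in either knockout, against 4.24% of all genes in LIFR KO and 1.76% in gp130 KO. The medians of the 13 were -0.05 for LIFR KO and -0.04 for gp130 KO over wildtype. Nop56, a core protein of the small nucleolar RNA particles, had the lowest LIFR KO ratio of these, -0.60, and Mybbp1a, a nucleolar MYB-binding protein gene, had -0.0072.

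**Figure D5:**
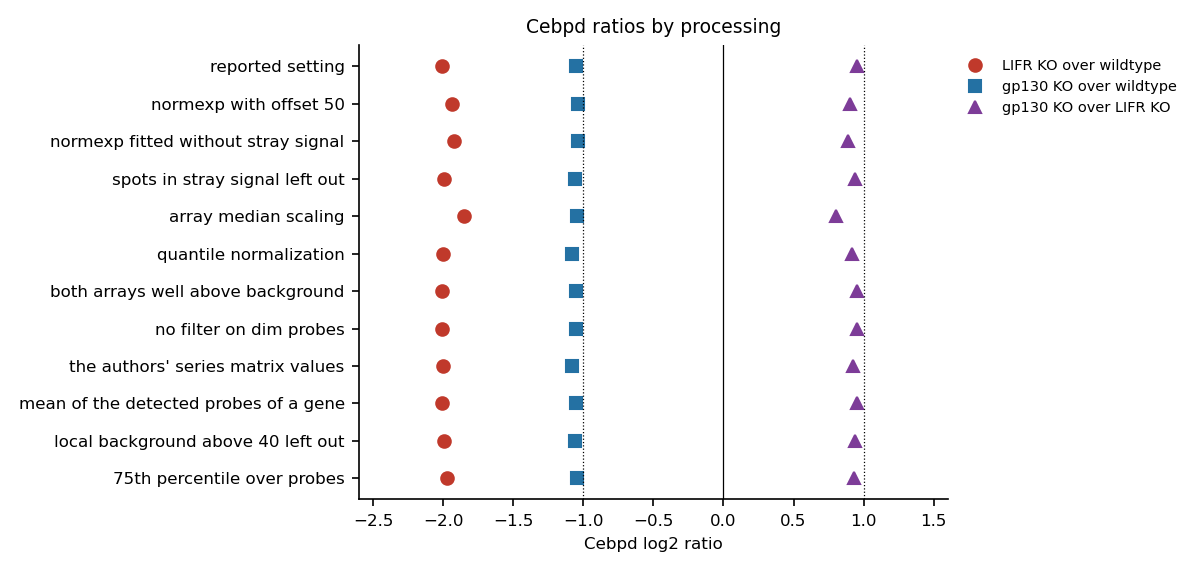
Log2 ratio of Cebpd in the 3 comparisons under the main processing and the 11 alternatives, with dotted lines at 2-fold. LIFR KO over wildtype stays between -2.01 and -1.85 and gp130 KO over wildtype between -1.08 and -1.04, both past 2-fold throughout, while gp130 KO over LIFR KO stays between 0.80 and 0.95.

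The labels were checked against the targeted genes and marker genes. Lifr had 3 probes, of which only the brightest was well above background. It gave 29.97, 34.7 and 34.9 on the LIFR KO, gp130 KO and wildtype arrays. The other Lifr probes were well above background on no array, the wildtype array included. Il6st gave 369, 299 and 329 in the same order, so these probes did not separate the genotypes. Where they lie relative to the deleted parts is not given in the sources used here. Of 12 pluripotency markers 8 were well above background on all arrays, but Sox2, Zfp42, Dppa3 and Fgf4 were on none, the wildtype array included. The summed levels of the 12 relative to the 75th percentile were 2.92, 3.25 and 3.37 on the LIFR KO, gp130 KO and wildtype arrays. Without Klf2, the brightest of them, the sums were 1.61, 2.54 and 2.25, so the gp130 KO array was then highest. Pou5f1, Nanog and Utf1, picked after their values were seen, were detected on all arrays. Pou5f1 gave 22.7, 20.3 and 31.2 on the LIFR KO, gp130 KO and wildtype arrays. Nanog gave 217, 329 and 316 in the same order, and Utf1 194, 230 and 220. The median log2 ratio of the 8 pluripotency markers compared was -0.38 for LIFR KO and 0.09 for gp130 KO over wildtype. All 12 epithelial markers were detected, with sums of 115, 111 and 105, and Cldn4 was 2.20-fold higher in LIFR KO than in wildtype cells. Its other probe, also well above background on all arrays, gave a log2 ratio of 0.96, just under 2-fold. Of 12 markers of macrophages and neutrophils 10 were on the array and 7 were detected, with sums of 2.03, 2.34 and 2.37 and with Lyz2, S100a9 and Mpo not detected. Of 10 fibroblast markers 5 were detected on all arrays, with Pdgfrb and Lum on none. Their sums of 118, 129 and 111 were nearly all Vim, and without it were 1.19, 1.15 and 0.923. Col1a1 was 3.23-fold higher in LIFR KO and Dcn 2.08-fold higher in gp130 KO than in wildtype cells. Each was the only 1 of 8 fibroblast markers compared that was past 2-fold there. The list medians over wildtype were 0 for LIFR KO and 0.37 for gp130 KO. With normexp fitted without the stray signal Cldn4 and Dcn were within 2-fold. The part of these in the Cebpd ratios was not tested, and in bulk RNA fewer cells of a type and less RNA per cell cannot be told apart. The LIFR KO array had a region of raised local background, at 65 spots above 100, against 0 on the gp130 KO and wildtype arrays, and at the C/EBP spots the local background lay between 17 and 27.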

How the data were processed

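Total RNA was labelled with Cy3 and hybridised to single-colour arrays, per the labels. Images of array design 026655 (mm9) were extracted with Feature Extraction 11.0.1.1, per the file headers, while the submitters' processing notes name version 9.1. The deposited intensity used was the processed signal of that software, from which background had been subtracted and which is not normalised between arrays. The deposited flags, another kind of value of 0 or 1 per the file headers, mark outliers and spots well above background. The authors' deposited log2 matrix, with a median of 5.38 in each of its 3 columns, was an alternative; its scale was found by comparison (r = 0.999, 0.995 and 0.996 across probes on the LIFR KO, gp130 KO and wildtype arrays) and its normalisation is not given in the sources used here.

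Outlier spots (222 on the LIFR KO, 138 on the gp130 KO and 97 on the wildtype array) were dropped. No spot was saturated. The log2 signal minus the 75th percentile of the non-control spots was used (pandas 2.3.3, numpy 2.4.6). Spots of a probe were averaged. A probe was well above background where more than 50% of its spots were so flagged, which held for 58.3% of probes on the LIFR KO, 65.5% on the gp130 KO and 64.3% on the wildtype array. Accessions named 69.1% of probes through a GRCm38.p6 gene table. A gene was read from its probe with the highest mean and compared where well above background on at least 1 array of the 2 compared. With the other array dim, the ratio is a bound. It was taken against the dim value itself or, if higher, that array's lowest signal well above background, and set to 0 where that left no difference. A call is 2-fold. All 3 arrays were of 1 scan. No test was possible with 1 array a group, and the number of arrays limits precision. The ratio code was tested on simulated data.

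Members and lists were chosen with earlier results of these data known. By rule the named genes are the members, up to 6 members of each list past 2-fold over wildtype, the 2 of each list with the highest mean signal, and 5 neighbours of Cebpd. Marker genes picked for signal alone are given through their sums. Genes named outside the rule, such as Stat3, Dbp, Hnf4a and the acute-phase genes, were chosen after their values were seen. Alternatives were normexp in limma 3.58.1, with and without the stray signal, leaving out stray spots, median and quantile scaling, the dim-probe filter, the authors' values, averaged probes and 2 added after seeing the data (local background above 40 left out, and the percentile over probe means).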

Additional observations from a re-analysis of the deposited data

How the results depend on the processing

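Across the 11 alternatives Cebpd stayed at least 2-fold lower in LIFR KO and in gp130 KO than in wildtype cells, and 1 C/EBP gene was counted in each, except with no filter on dim probes, where Cebpe, dim on both arrays, made the LIFR KO count 2 at a log2 ratio of -1.43. The number of all genes at least 2-fold apart depended more on the processing, against 617 for LIFR KO over wildtype, 263 for gp130 KO over wildtype and 494 for gp130 KO over LIFR KO. Normexp with an offset of 50 gave 3400, 43 and 3321, and fitted without the stray signal 182, 43 and 121. No filter gave 1667, 1247 and 1532. Requiring both arrays well above background gave 144 for gp130 KO over wildtype and 308 for gp130 KO over LIFR KO. The cause was not tested. Scaling to the array median moved the all-gene median of LIFR KO over wildtype to 0.10 against -0.03, and the split to 527 higher and 153 lower against 381 and 236. For gp130 KO over LIFR KO it gave 128 higher and 387 lower against 191 and 303. Quantile scaling gave 447 and 176 for LIFR KO over wildtype. No filter turned the split to 649 higher and 1018 lower for LIFR KO over wildtype and 969 and 563 for gp130 KO over LIFR KO. Normexp with an offset of 50 gave 3306 and 94, 10 and 33, and 47 and 3274 in the 3 comparisons in the order above, against 381 and 236, 146 and 117, and 191 and 303, and fitted without the stray signal 10 and 33 for gp130 KO over wildtype. Of 2738 values for single genes and lists under the alternatives, 406 moved by more than the half-width of repeated spots, or 1.5 times for counts, and 2 reversed from a value past 2-fold. They were Camp in LIFR KO over wildtype, -0.32 with local background above 40 left out, where another probe is read, and Serpina1a in gp130 KO over LIFR KO, -1.07 with normexp at an offset of 50 against 1.03. That normexp setting also took Egr2, Lifr, Fabp4 and Serpina1a past 2-fold higher in LIFR KO over wildtype, at 1.68, 1.58, 1.51 and 1.30, and Atf4, Nop56 and Jun past 2-fold lower, at -1.22, -1.06 and -1.04. No paired analysis was possible because each group had 1 array. Signal over background limits Cebpa and Cebpe, and no array was left out, since each group had 1.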
